A study of Mus musculus with 2 samples.

Results

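Conventional dendritic cells of type 1 (cDC1) were taken from a single-cell RNA dataset of sorted dendritic cells and compared between 2 sets of 3 hashtags, hashtags 2, 4 and 5 (trio 2-4-5) and hashtags 6, 8 and 9 (trio 6-8-9). A hashtag is an antibody with a DNA label that marks all cells of 1 biological replicate before replicates are pooled. A cell counted as cDC1 if its unique molecular identifiers (UMIs, 1 per captured transcript) held at least 3 of Xcr1 and Clec9a together, more of these than of Sirpa, and at most 1 of Fscn1. Of 15480 cells with a single hashtag, at least 500 genes and at most 10% mitochondrial UMIs, 2149 passed this gate. There were 777 in trio 2-4-5 (247, 242 and 288 in hashtags 2, 4 and 5) and 1372 in trio 6-8-9 (561, 252 and 559 in hashtags 6, 8 and 9).

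The cells came from untreated mice aged 15 days of the Gm38411-iCre-hCD2 reporter genotype, which all 6 replicates shared, and were sorted as CD3-B220-CD11c+MHC-II+ from mesenteric lymph nodes (mLN) and small-intestinal lamina propria (siLP), with 3 replicates per tissue. All replicates were pooled in 1 droplet run with Chromium 3′ v3 chemistry, so the cells also shared their library and sequencing. The labels do not state which hashtag marks which tissue (the title names both tissues and the tissue label of both libraries gives mLN), so no tissue is named for either trio. The division into trios is not in the labels either: it was proposed after the hashtags were seen to differ, and a p-value here measures how far the trios stood apart relative to the spread between the 3 hashtags within each.

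Background: cDC1 are the dendritic cells that take up dying cells through the receptor Clec9a, pass their antigens to MHC class I for CD8+ T cells, and carry the chemokine receptor Xcr1. They depend on the transcription factors Irf8 and Batf3. In the gut, dendritic cells that carry antigen induce Ccr7 and move through the lymph to the draining node, while other cDC1 reach the node from the blood as precursors. Their retinoic acid and TGF-beta pathways are known for shaping regulatory and gut-homing lymphocytes.

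The share of cells in the gate was 16.6%, 14.9% and 15.4% in trio 2-4-5 and 18.1%, 9.89% and 11.5% in trio 6-8-9, a mean of 15.7% ± 0.876 against 13.2% ± 4.38 (SD, n = 3 each). Hashtag 6 had the highest and hashtag 8 the lowest share, so the trios overlapped, and the difference of 2.47 percentage points gave p = 0.4 in a two-sided exact permutation test, whose smallest possible p is 0.10 here. Depth differed. The median cDC1 held 10249, 10598.5 and 12264.5 UMIs in trio 2-4-5 and 18624, 17880.5 and 18796 UMIs in trio 6-8-9, and the summed cDC1 libraries held 2877183 to 3817982 and 4497311 to 11098008 UMIs. More RNA per cell and deeper capture per cell cannot be told apart in these counts. The median share of mitochondrial UMIs was 2.71% to 3.22% per cell in trio 2-4-5 and 1.49% to 1.58% in trio 6-8-9. At the edge of the gate, 136 cells were inside with exactly 3 marker UMIs and 181 were outside with 2, while Sirpa kept out 21 cells and Fscn1 42.

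**Figure D1:**
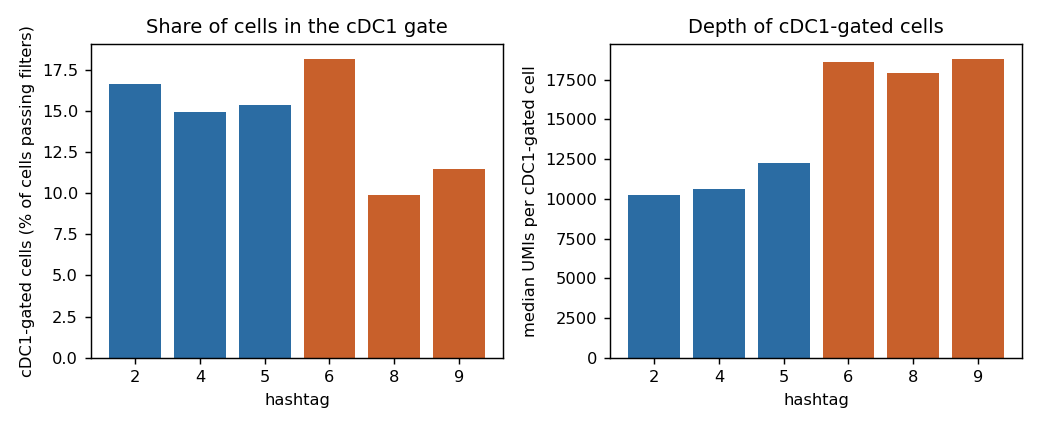
Share of cells in the cDC1 gate (left, % of cells passing the filters) and median UMIs per cDC1 (right) for each hashtag, with trio 2-4-5 in blue and trio 6-8-9 in orange. The shares overlap between the trios (14.9% to 16.6% and 9.89% to 18.1%), while every hashtag of trio 6-8-9 has a higher median depth than every hashtag of trio 2-4-5.

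The genes of the gate are given as a description, since they chose the cells. Levels here and below are UMIs of a gene scaled to a common library size (CPM) after the trimmed mean of M-values (TMM) method, and are listed in the order of hashtags 2, 4, 5 and then 6, 8, 9. Xcr1 had 289, 283 and 291 CPM in trio 2-4-5 and 391, 406 and 388 CPM in trio 6-8-9. Clec9a had 468, 483 and 444 CPM in trio 2-4-5 and 476, 549.6 and 492 CPM in trio 6-8-9. Both stood far above the cDC2 gate used for comparison further on (4.91 to 9.60 CPM for Xcr1), and Sirpa stood at 9.42 to 26.7 CPM. No T cell, natural killer cell, neutrophil or mast cell marker passed the filter on low counts.

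Gene expression differed widely between the trios. Of 10795 genes tested, leaving out the gate genes, edgeR's quasi-likelihood test called 6468 with an adjusted p (Benjamini-Hochberg) under 0.05 (59.9% of genes), 3189 higher in trio 2-4-5 (29.5%) and 3279 higher in trio 6-8-9 (30.4%). A called difference of at least 2-fold was found for 2184 genes (20.2%), 1192 higher in trio 2-4-5 (11.0%) and 992 in trio 6-8-9 (9.19%). For 7110 genes (65.9%) the 3 values of one trio lay apart from the 3 of the other, with trio 6-8-9 above for 33.3% of genes and trio 2-4-5 above for 32.6%. With most genes called, a call alone says little about a gene, and each count below is to be read against these shares. Most single genes below were named from a list or from the largest changes only if called and without overlap. For those genes the lack of overlap was a condition of being named and is no added evidence. In the cells of 4000 to 12000 UMIs, a band that both trios share, 3376 of 7359 genes were called. The even split rests on TMM scaling, which assumes that most genes do not differ: scaling by total counts alone moved the median log2 difference, trio 2-4-5 over trio 6-8-9, from 0.02 to 0.49 and gave 80.7% of its 7569 calls as higher in trio 2-4-5. By direction, 6110 of the 10795 genes were then called higher in trio 2-4-5 and 1459 in trio 6-8-9. Each count below with total-count scaling is to be read against these numbers. Differences below are therefore relative to the median gene. The log2 differences also moved with gene length on the genome: trio 2-4-5 over trio 6-8-9, the median was -0.23 in the shortest and 0.23 in the longest of 4 equal groups of genes, and its part in single results was not tested. Ribosomal protein genes held 15.9% to 16.8% of cDC1 UMIs in trio 2-4-5 and 18.8% to 19.4% in trio 6-8-9.

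**Figure D2:**
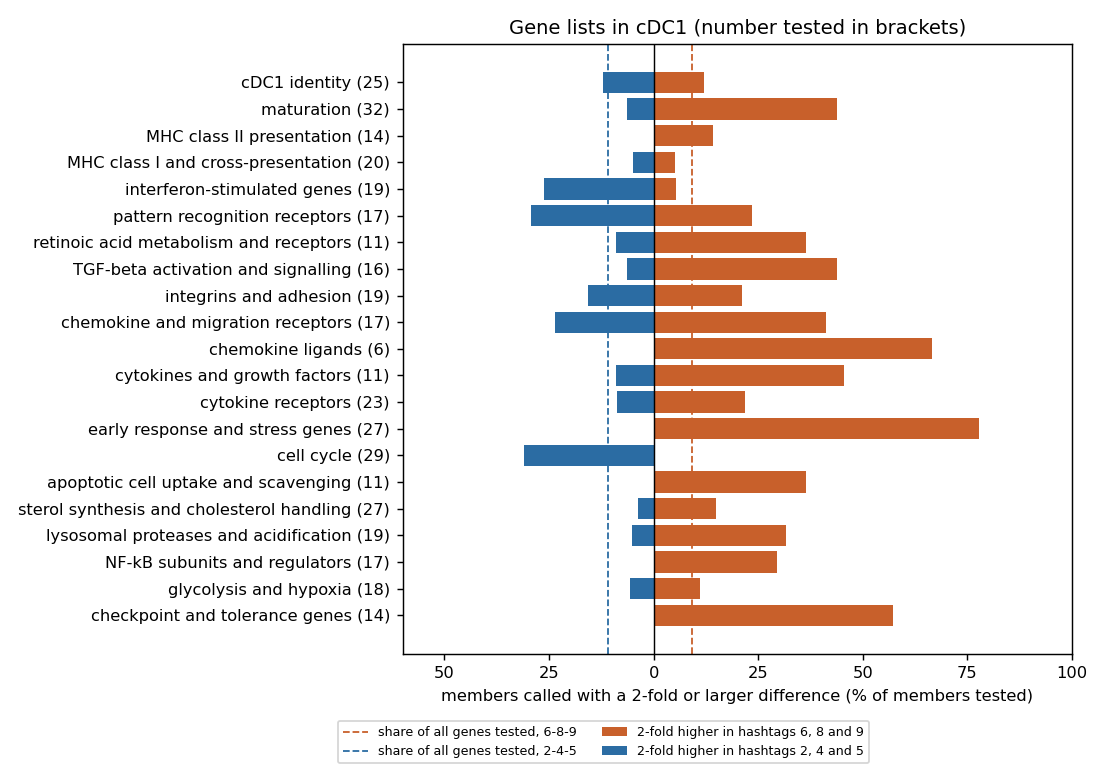
Share of the tested members of the gene lists with at least 6 tested genes, without the lists of other cell types (number tested in brackets), that were called with a difference of at least 2-fold, higher in trio 6-8-9 to the right (orange) and higher in trio 2-4-5 to the left (blue), in % of members tested. Dashed lines mark the shares over all genes tested (9.19% and 11.0%). Early response genes, chemokine ligands and checkpoint genes reach farthest to the right among the lists drawn, and cell cycle genes farthest to the left.

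No difference between the trios was detected for 3 well-known cDC1 genes, Irf8, Tlr3 and Cd8a, with TMM scaling. Irf8, the transcription factor on which cDC1 depend, had 1327, 1283 and 1274 CPM in trio 2-4-5 and 1304, 1320 and 1306 CPM in trio 6-8-9. The log2 difference, trio 6-8-9 over trio 2-4-5, was 0.01 ± 0.05 (SE), with adjusted p = 0.83, and its sign changed under several settings. With total-count scaling Irf8 was 0.46 higher (log2) in trio 2-4-5 and was called. Tlr3, the sensor of double-stranded RNA, had 197, 195 and 176 CPM in trio 2-4-5 and 180.1, 189.7 and 173 CPM in trio 6-8-9 and adjusted p = 0.44. Cd8a, the T cell co-receptor that marks lymphoid cDC1, had 40.2, 48.8 and 45.5 CPM in trio 2-4-5 and 46.0, 49.4 and 46.9 CPM in trio 6-8-9 and adjusted p = 0.54. The values of these genes overlapped between the trios, and Tlr3 and Cd8a too were called higher in trio 2-4-5 when only total counts were used for scaling. Batf3, the partner of Irf8, had 169, 174 and 157 CPM in trio 2-4-5 and 148, 143 and 141 CPM in trio 6-8-9 and was 0.21 ± 0.07 (log2) higher in trio 2-4-5 (adjusted p = 0.022), a call lost in 9 of the alternative settings.

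Of 25 tested cDC1 identity genes, 12 were called higher in trio 2-4-5 and 9 in trio 6-8-9, with 3 in each direction past 2-fold (12% each, beside 11.0% and 9.19% of all genes), and the list's median log2 difference, trio 6-8-9 over trio 2-4-5, was -0.19 beside -0.02 for all genes. With total-count scaling 17 were called higher in trio 2-4-5 and 4 in trio 6-8-9, with 5 and 0 past 2-fold. Over all 10795 genes the calls with that scaling were 6110 and 1459. Higher in trio 2-4-5 was Clnk, an adaptor of immune receptor signalling (chr5:38706462-38876812, minus strand, GRCm38), with 168, 156 and 165 CPM in trio 2-4-5 and 34.6, 31.6 and 34.1 CPM in trio 6-8-9. Gcsam, a signalling protein known from germinal centre B cells, had 119, 109.8 and 106 CPM in trio 2-4-5 and 27.3, 24.4 and 24.9 CPM in trio 6-8-9. Tlr11, a receptor for microbial profilin, had 115, 106 and 81.1 CPM in trio 2-4-5 and 41.1, 48.6 and 41.9 CPM in trio 6-8-9. None of the 3 overlapped, and their log2 differences were 2.28 ± 0.08, 2.13 ± 0.09 and 1.21 ± 0.13 (adjusted p = 1.1e-09, 7.1e-09 and 7.4e-06). Wdfy4, which is needed for cross-presentation of cell-bound antigen, was also higher there, with 2367, 2299 and 2156 CPM in trio 2-4-5 and 1258, 1412 and 1216 CPM in trio 6-8-9.

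Higher in trio 6-8-9 were adhesion and scavenger molecules. Cadm1, an adhesion molecule of the immunoglobulin family, had 594, 671 and 628 CPM in trio 2-4-5 and 1650, 1785 and 1700 CPM in trio 6-8-9, a log2 difference of 1.44 ± 0.06 (adjusted p = 7.3e-09). Itgae encodes CD103, the integrin that binds E-cadherin on epithelium, and had 128, 143 and 106 CPM in trio 2-4-5 and 238, 296 and 278 CPM in trio 6-8-9 (1.11 ± 0.11, adjusted p = 5.6e-06). Cd36, a scavenger receptor for lipids and dying cells, had 179, 197 and 164 CPM in trio 2-4-5 and 323, 403 and 419 CPM in trio 6-8-9. In all 3 the lowest value of trio 6-8-9 was above the highest of trio 2-4-5, and hashtag 6 was the lowest of its trio. Cd207, which encodes langerin, had 1, 11 and 3 UMIs in trio 2-4-5 and 3, 1 and 9 in trio 6-8-9, too few for a test.

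**Figure D3:**
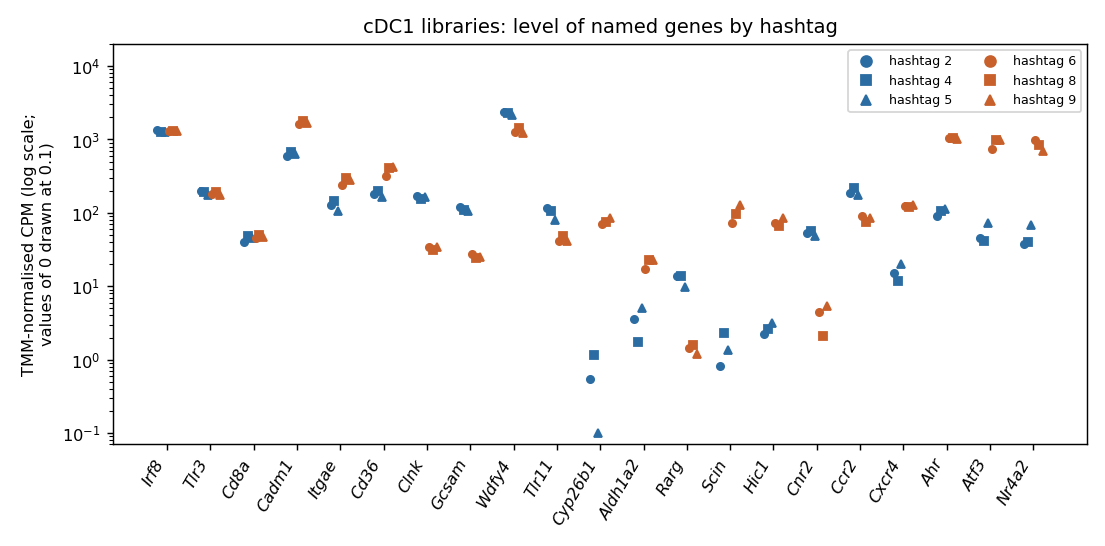
TMM-normalised CPM (log axis, values of 0 drawn at 0.1) of named genes in the 6 summed cDC1 libraries, trio 2-4-5 in blue and trio 6-8-9 in orange, with 1 symbol per hashtag. Irf8, Tlr3 and Cd8a lie together. Cyp26b1 is at 0 to 1.17 CPM in trio 2-4-5 and at 71.1 to 86.5 CPM in trio 6-8-9.

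In the retinoic acid pathway both a synthesis and a breakdown enzyme were higher in trio 6-8-9. Cyp26b1, the enzyme that degrades retinoic acid (chr6:84571414-84593908, minus strand, GRCm38), had 0.554, 1.17 and 0 CPM in trio 2-4-5 and 71.1, 75.4 and 86.5 CPM in trio 6-8-9. Its fitted difference was the largest among the genes named here, 7.15 ± 0.30 on the log2 scale (adjusted p = 4.6e-09), and the ratio of its summed CPM was 149 with an exact 95% counting interval of 68.5 to 408, from 6 UMIs in trio 2-4-5 and 1735 in trio 6-8-9. Hashtag 5 had no Cyp26b1 UMI, which allows up to 0.68 CPM at 3 counts. At least 1 UMI was found in 32.8%, 35.3% and 35.4% of cDC1 in hashtags 6, 8 and 9 and in 0 to 1.24% in trio 2-4-5. In cDC2 of the same hashtags, cells with a lower median depth (7293 to 14057.5 UMIs), the share was 0.308% to 0.997%. No single cell held more than 7.04% of the gene's UMIs in a hashtag of trio 6-8-9.

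Aldh1a2, which makes retinoic acid, had 3.60, 1.75 and 4.98 CPM in trio 2-4-5 and 17.0, 22.8 and 22.6 CPM in trio 6-8-9, a log2 difference of 2.52 ± 0.27 (adjusted p = 7.9e-06). Dhrs9, a dehydrogenase that oxidises retinol, had 12.2, 12.3 and 10.6 CPM in trio 2-4-5 and 46.2, 52.8 and 40.0 CPM in trio 6-8-9. The retinoic acid receptors went in opposite directions. Rarb, a receptor whose gene is itself induced by retinoic acid, had 3.05, 4.67 and 3.40 CPM in trio 2-4-5 and 11.9, 17.2 and 17.8 CPM in trio 6-8-9. Rarg had 13.8, 14.01 and 9.74 CPM in trio 2-4-5 and 1.44, 1.59 and 1.18 CPM in trio 6-8-9, higher in trio 2-4-5 by 3.17 ± 0.27 (log2, adjusted p = 1.4e-06). No value of these genes overlapped between the trios. Of 11 tested genes of the list, 5 were called higher in trio 6-8-9. Past 2-fold were 4 of them (Cyp26b1, Aldh1a2, Dhrs9 and Rarb), 36.4% beside 9.19% of all genes. Rarg was the only one called higher in trio 2-4-5, also past 2-fold (9.09%, beside 11.0%). With total-count scaling 4 genes were called higher in each trio, with 4 past 2-fold in trio 6-8-9 and 1 in trio 2-4-5.

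Ccr2, the receptor for blood-borne entry into tissue, marked a larger part of trio 2-4-5. Its level was 186, 219.6 and 173 CPM in trio 2-4-5 and 92.0, 76.2 and 85.4 CPM in trio 6-8-9, 1.18 ± 0.10 (log2) higher in trio 2-4-5 (adjusted p = 1.4e-06). With each cell thinned to 2000 UMIs, so that depth is equal, a Ccr2 UMI was found in 29.6%, 30.6% and 21.5% of cells in trio 2-4-5 and 11.2%, 10.3% and 11.8% in trio 6-8-9. The unthinned shares were 61.1%, 58.3% and 56.2% of cells in trio 2-4-5 and 42.2%, 29.8% and 38.6% in trio 6-8-9, and in cDC2 4.56% to 12.9%. Within trio 6-8-9 both Ccr2 and Cyp26b1 were present, and in each hashtag fewer cells had both than had either alone. In hashtag 6, 184 cells had a Ccr2 UMI without Cyp26b1, 131 had Cyp26b1 without Ccr2, 53 had both and 193 neither. Hashtag 8 had 58, 72, 17 and 105 such cells, and hashtag 9 had 160, 142, 56 and 201. These are counts of detection, and an undetected transcript can still be present. The number of cells with both was not compared with that of genes detected independently of each other.

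**Figure D4:**
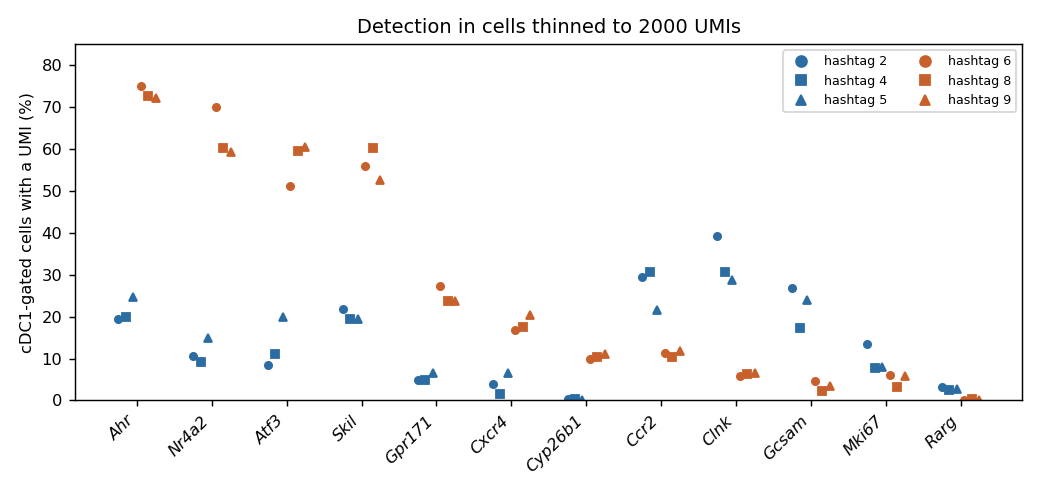
Share of cDC1 with at least 1 UMI of a gene (%, vertical axis) after each cell was thinned to 2000 UMIs, by hashtag, trio 2-4-5 in blue and trio 6-8-9 in orange. Ahr was found in 19.4% to 24.7% of cells in trio 2-4-5 and in 72.2% to 75.04% in trio 6-8-9, while Clnk, Gcsam and Ccr2 are higher in trio 2-4-5.

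Of 17 tested chemokine and migration receptors, 8 were called higher in trio 6-8-9, 7 at least 2-fold (41.2%, beside 9.19% of all genes), and 4 in trio 2-4-5, all of them 2-fold (23.5%, beside 11.0%). Ccr7, the receptor for entry into lymph vessels, counted with the maturation genes below, had 15.2, 14.01 and 10.2 CPM in trio 2-4-5 and 38.7, 51.5 and 39.4 CPM in trio 6-8-9 (1.70 ± 0.17 on the log2 scale, adjusted p = 4.1e-06). Its level in free RNA, taken from barcodes of at most 100 UMIs, was 270.2 CPM, above all 6 libraries, and a Ccr7 UMI was found in 2.02% to 3.72% of thinned cells in trio 2-4-5 and in 3.74% to 5.20% in trio 6-8-9. The unthinned shares were 13.9% to 14.2% and 20.9% to 24.2%. Free RNA carries no TMM factor. It stood above all 6 cDC1 libraries for other genes named below too, among them Gpr183, Cd274, Cd86, Cd83, Cd40, Rel, Il1b, Il1r2, Ccl4 and Rgs1. The part of free RNA in their differences was not tested. Gpr171, a receptor of the P2Y family, had 21.6, 16.1 and 21.7 CPM in trio 2-4-5 and 214, 191 and 190 CPM in trio 6-8-9. Cxcr4, the receptor for Cxcl12, had 15.2, 11.7 and 20.4 CPM in trio 2-4-5 and 125, 120.5 and 129.6 CPM in trio 6-8-9. Gpr183, which senses oxysterols and positions dendritic cells, had 45.7, 41.5 and 75.4 CPM in trio 2-4-5 and 292, 262 and 279 CPM in trio 6-8-9, and hashtag 5 was the highest of trio 2-4-5 for both of the last genes. Their log2 differences were 3.31 ± 0.11, 2.96 ± 0.14 and 2.34 ± 0.17 (adjusted p = 9.6e-10, 1.4e-08 and 3.3e-07). Ccr9, the receptor for the gut chemokine Ccl25, had 99.2, 107 and 108 CPM in trio 2-4-5 and 98.9, 118 and 90.7 CPM in trio 6-8-9, with overlapping values and adjusted p = 0.72.

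Transcripts of immediate early genes, which cells make within minutes of a stimulus, were higher in trio 6-8-9. Of 27 tested early response and stress genes, 21 were called higher there, all 21 at least 2-fold (77.8%, beside 9.19% of all genes), and none in trio 2-4-5. The list's median log2 difference was 2.15. The same number, 21, passed 2-fold in cells of 4000 to 12000 UMIs, and 18 did with total-count scaling. The genes not called were Jun and the heat shock genes Hspa1a, Hspa1b, Hsph1, Dnajb1 and Hsp90aa1. Nr4a2, an orphan nuclear receptor (chr2:57106830-57124003, minus strand, GRCm38), had 37.1, 40.3 and 67.9 CPM in trio 2-4-5 and 969, 838 and 696 CPM in trio 6-8-9. Atf3, a stress-induced transcription factor, had 44.9, 41.5 and 72.7 CPM in trio 2-4-5 and 742, 986 and 994 CPM in trio 6-8-9. Dusp1, a phosphatase that turns off MAP kinases, had 59.3, 48.8 and 114 CPM in trio 2-4-5 and 687, 787 and 927 CPM in trio 6-8-9. Hashtag 5 was the highest of trio 2-4-5 for all 3 and still below every hashtag of trio 6-8-9. Their log2 differences were 4.09 ± 0.20, 4.08 ± 0.19 and 3.42 ± 0.24 (adjusted p = 1.4e-08, 9.7e-09 and 2.9e-07).

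Detection per cell differed as well. After thinning, Atf3 was found in 8.502%, 11.2% and 19.8% of cells in trio 2-4-5 and 51.2%, 59.5% and 60.4% in trio 6-8-9, and Nr4a2 in 10.5%, 9.09% and 14.9% of cells in trio 2-4-5 and 69.9%, 60.3% and 59.1% in trio 6-8-9. All hashtags shared 1 droplet run and so 1 free-RNA profile, in which Atf3 stood at 796 CPM and Nr4a2 at 404 CPM, above each library of trio 2-4-5. For Atf3 the free-RNA level was also above hashtag 6 of trio 6-8-9 (742 CPM). The heat shock gene Hspa1a varied within both trios, with 79.2, 162 and 285 CPM in trio 2-4-5 and 89.8, 204 and 238 CPM in trio 6-8-9. Hashtag 2 was lowest in one trio and hashtag 6 in the other, the trios overlapped, and the adjusted p was 0.996.

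Early response genes are known to be driven through cAMP response elements, so promoters of 3 of them are shown, from the 250 bases before the RefSeq start site (GRCm38.p6). Nr4a2 lies at chr2:57124004-57124253 on the minus strand, Nr4a3, another orphan nuclear receptor, at chr4:48045055-48045304 on the plus strand, and Dusp1 at chr17:26508473-26508722 on the minus strand. Each is written 5′ to 3′ on its gene's strand, and capitals mark the half-site TGACG or, for a match on the other strand, CGTCA (adjoining matches merge).
Nr4a2: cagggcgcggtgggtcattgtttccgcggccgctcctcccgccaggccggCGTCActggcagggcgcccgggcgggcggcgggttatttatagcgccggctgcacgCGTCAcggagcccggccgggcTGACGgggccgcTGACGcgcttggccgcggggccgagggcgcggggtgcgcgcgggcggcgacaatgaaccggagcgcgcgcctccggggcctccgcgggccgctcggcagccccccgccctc
Nr4a3: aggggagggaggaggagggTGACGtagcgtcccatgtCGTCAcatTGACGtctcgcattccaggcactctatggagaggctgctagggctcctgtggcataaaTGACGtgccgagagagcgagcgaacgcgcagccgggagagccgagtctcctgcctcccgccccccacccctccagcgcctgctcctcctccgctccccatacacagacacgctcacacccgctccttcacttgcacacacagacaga
Dusp1: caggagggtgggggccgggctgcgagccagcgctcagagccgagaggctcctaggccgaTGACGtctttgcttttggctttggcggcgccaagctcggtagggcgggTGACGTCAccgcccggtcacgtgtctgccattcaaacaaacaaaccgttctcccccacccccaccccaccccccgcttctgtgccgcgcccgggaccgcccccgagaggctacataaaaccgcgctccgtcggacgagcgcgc
Matches numbered 4 in Nr4a2, 4 in Nr4a3 and 3 in Dusp1. The half-site was searched on both strands, and a match is a description of letters, not of a bound site. It was present for 13 of the 23 early response and stress genes with a promoter in the RefSeq table (56.5%), among them Fos, Junb, Egr2, Klf4 and Dnajb1, beside 19.8% of all 27025 genes and 17.8% of all 32851 promoters. Of these 5, Dnajb1 was not called between the trios. Early response genes are known for this element, and the 3 promoters shown are among the 13. The half-site therefore describes the list and not the difference between the trios. Nr4a3 itself had 52.9, 53.1 and 66.6 CPM in trio 2-4-5 and 441, 454 and 509.9 CPM in trio 6-8-9.

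Ahr, the receptor for dietary and microbial aryl hydrocarbons, was among the genes with the smallest adjusted p (chr12:35497974-35535038, minus strand, GRCm38). It had 90.8, 105 and 114 CPM in trio 2-4-5 and 1034, 1033 and 1030 CPM in trio 6-8-9, a log2 difference of 3.31 ± 0.08 (adjusted p = 2.1e-10), and the 3 values of trio 6-8-9 lay close together. Tiparp, a target gene of Ahr, had 58.2, 63.6 and 87.9 CPM in trio 2-4-5 and 339, 383 and 422 CPM in trio 6-8-9. Ahrr, the Ahr repressor and another target, had only 3.88, 2.63 and 2.49 CPM in trio 2-4-5 and 4.64, 6.10 and 4.50 CPM in trio 6-8-9. Entpd1 encodes CD39, which breaks down extracellular ATP, and had 42.4, 55.8 and 53.0 CPM in trio 2-4-5 and 259, 348 and 315 CPM in trio 6-8-9. Cd274 encodes the checkpoint ligand PD-L1 and had 21.9, 29.2 and 29.7 CPM in trio 2-4-5 and 102, 128 and 148 CPM in trio 6-8-9. In each of these genes trio 6-8-9 lay above trio 2-4-5, with log2 differences of 2.44 ± 0.14 for Tiparp, 2.60 ± 0.13 for Entpd1 and 2.22 ± 0.15 for Cd274 (adjusted p = 4.2e-08, 1.5e-08 and 2.6e-07), and 0.72 ± 0.29 for Ahrr (adjusted p = 0.048). Of 14 tested checkpoint and tolerance genes, a list that holds Ahr, Tiparp, Ahrr and Entpd1, 8 were at least 2-fold higher in trio 6-8-9 (57.1%, beside 9.19%) and none in trio 2-4-5. Vsir and Lgals9, inhibitory ligands, were called higher in trio 2-4-5 below 2-fold.

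TGF-beta pathway genes followed the same direction in part. Of 16 tested, 11 were called higher in trio 6-8-9, 7 at least 2-fold (43.8%, beside 9.19%), and 1, Nrros, in trio 2-4-5. With total-count scaling 7 were called higher in trio 6-8-9, 5 of them 2-fold, and 6 in trio 2-4-5. Over all 10795 genes the calls with that scaling were 1459 and 6110. In cells of 4000 to 12000 UMIs 7 genes of the list were called. Skil, a repressor of SMAD signalling that TGF-beta induces, had 81.4, 77.1 and 88.1 CPM in trio 2-4-5 and 533, 599 and 491 CPM in trio 6-8-9. Tgif1, a SMAD co-repressor, had 30.7, 21.0 and 27.4 CPM in trio 2-4-5 and 77.5, 93.4 and 94.1 CPM in trio 6-8-9. Runx3, a transcription factor that works with SMADs, had 44.0, 49.6 and 58.0 CPM in trio 2-4-5 and 147, 149.7 and 151 CPM in trio 6-8-9. No values overlapped, and the log2 differences were 2.71 ± 0.09, 1.73 ± 0.13 and 1.55 ± 0.10 (adjusted p = 9.3e-10, 6.2e-07 and 1.1e-07). The receptor Tgfbr1 had 44.6, 59.3 and 60.2 CPM in trio 2-4-5 and 78.0, 94.7 and 89.9 CPM in trio 6-8-9. Nrros, which anchors latent TGF-beta on myeloid cells, had 179, 159 and 151 CPM in trio 2-4-5 and 81.7, 68.2 and 84.2 CPM in trio 6-8-9, 1.05 ± 0.10 (log2) higher in trio 2-4-5 (adjusted p = 2.5e-06). Itgb8, whose integrin activates TGF-beta, had 24 UMIs in trio 2-4-5 and 20 in trio 6-8-9 and was not tested.

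Maturation genes were mixed in kind. Of 32 tested, 20 were called higher in trio 6-8-9, 14 at least 2-fold (43.8%, beside 9.19%), and 7 in trio 2-4-5, 2 of them 2-fold. With total-count scaling 15 were called higher in trio 6-8-9 and 11 in trio 2-4-5, beside 1459 and 6110 of all 10795 genes. In cells of 4000 to 12000 UMIs it was 13 and 4 of 26 tested. Cd86, a co-stimulatory ligand of CD28, had 308.3, 306.3 and 314 CPM in trio 2-4-5 and 1037, 1023 and 1093 CPM in trio 6-8-9. Free RNA held 1796 CPM of Cd86, above all 6 libraries. Cd83, which stabilises MHC class II and CD86 at the surface, had 239, 178 and 314 CPM in trio 2-4-5 and 1282, 1345 and 1485 CPM in trio 6-8-9. Cd40, the receptor for T cell help, went the other way with 38.5, 30.9 and 30.6 CPM in trio 2-4-5 and 14.4, 17.0 and 21.2 CPM in trio 6-8-9. The log2 differences, trio 6-8-9 over trio 2-4-5, were 1.76 ± 0.06, 2.48 ± 0.16 and -0.92 ± 0.16 (adjusted p = 9.3e-10, 1.1e-07 and 3.8e-04). Il15 and its receptor chain Il15ra, which present interleukin 15 to lymphocytes, were higher in trio 2-4-5 with log2 differences of 0.78 ± 0.11 and 1.83 ± 0.25 (adjusted p = 8.2e-05 and 5.4e-05).

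Il12b, the p40 subunit of interleukins 12 and 23, had 1.11, 0.876 and 2.49 CPM in trio 2-4-5 and 25.1, 6.10 and 24.2 CPM in trio 6-8-9 (3.63 ± 0.56 on the log2 scale, adjusted p = 1.5e-04). Hashtag 8 was well below hashtags 6 and 9 and above trio 2-4-5. The transcript sat in few cells: 41 of 561, 8 of 252 and 32 of 559 cDC1 in hashtags 6, 8 and 9 had a UMI, and the highest single cell held 20.7%, 47.8% and 32.3% of them. The inflammatory cytokine Il1b had 66.2, 73.6 and 74.3 CPM in trio 2-4-5 and 389.5, 448 and 411 CPM in trio 6-8-9, and Il1r2, the decoy receptor for it, had 44.3, 42.6 and 50.1 CPM in trio 2-4-5 and 273, 313 and 282 CPM in trio 6-8-9. Ltb, which drives lymphoid tissue formation, was lower in trio 6-8-9 with 28.8, 29.8 and 39.2 CPM in trio 2-4-5 and 6.19, 5.84 and 7.29 CPM in trio 6-8-9. Il12rb2, a chain of the interleukin 12 receptor, had 16.9, 19.3 and 18.6 CPM in trio 2-4-5 and 3.53, 1.06 and 2.57 CPM in trio 6-8-9. Log2 differences, trio 6-8-9 over trio 2-4-5, were 2.54 ± 0.08, 2.65 ± 0.09, -2.32 ± 0.17 and -2.78 ± 0.26 (adjusted p = 8.0e-10, 9.3e-10, 3.5e-07 and 3.3e-06). Csf2rb, a shared chain of the GM-CSF receptor, had 75.6, 69.2 and 74.3 CPM in trio 2-4-5 and 453, 430.2 and 539.8 CPM in trio 6-8-9 and was 2.70 ± 0.10 higher in trio 6-8-9 (adjusted p = 1.1e-09). Of 6 tested chemokine ligands, 4 (Ccl3, Ccl4, Ccl17 and Cxcl2) were at least 2-fold higher in trio 6-8-9 (66.7%, beside 9.19% of all genes). None was 2-fold higher in trio 2-4-5 (beside 11.0%). With total-count scaling 4 were 2-fold higher in trio 6-8-9 and 1 in trio 2-4-5. Ccl4, a chemokine that attracts lymphocytes and monocytes, had 68.1, 73.0 and 109.6 CPM in trio 2-4-5 and 560.1, 408 and 394 CPM in trio 6-8-9.

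Of 14 tested genes of the MHC class II list, 11 were called higher in trio 6-8-9 (78.6%, beside 30.4% of all genes) and only Ciita in trio 2-4-5, with a median log2 difference of 0.81. With total-count scaling 9 were called higher in trio 6-8-9 and 4 in trio 2-4-5. The beta chain gene H2-Eb1 had 3739, 3638 and 3895 CPM in trio 2-4-5 and 7238, 7670 and 7636 CPM in trio 6-8-9. H2-DMa, which helps load peptides, had 251, 276 and 303.96 CPM in trio 2-4-5 and 552, 638 and 604 CPM in trio 6-8-9. Ciita, the transcriptional activator of these genes, had 380, 429 and 352 CPM in trio 2-4-5 and 184, 219.7 and 195 CPM in trio 6-8-9, higher in the trio in which 11 members of its list were lower. The log2 differences, trio 6-8-9 over trio 2-4-5, were 0.997 ± 0.05, 1.11 ± 0.08 and -0.96 ± 0.09 (adjusted p = 2.3e-08, 4.7e-07 and 2.8e-06).

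For MHC class I and cross-presentation, 9 of 20 tested genes were called higher in trio 6-8-9 (45%, beside 30.4% of all genes). In trio 2-4-5 it was 4 (20%, beside 29.5%), and the median log2 difference was 0.15. With total-count scaling the split turned to 2 in trio 6-8-9 and 14 in trio 2-4-5, beside 1459 and 6110 of all 10795 genes. Past 2-fold were only Cybb in trio 6-8-9 and Nlrc5 in trio 2-4-5. Nlrc5, the activator of MHC class I genes (chr8:94434356-94527272, plus strand, GRCm38), had 87.8, 82.3 and 69.3 CPM in trio 2-4-5 and 16.5, 17.2 and 16.2 CPM in trio 6-8-9 (2.27 ± 0.11 on the log2 scale, adjusted p = 1.9e-08). H2-K1, a class I chain, had 425, 410.2 and 414 CPM in trio 2-4-5 and 490.5, 468 and 494 CPM in trio 6-8-9, slightly higher in trio 6-8-9. Cybb, a subunit of the phagosomal NADPH oxidase, had 18.8, 18.7 and 23.3 CPM in trio 2-4-5 and 46.8, 67.7 and 79.0 CPM in trio 6-8-9. With TMM scaling, the values of the activator Nlrc5 and those of the class I chain lay in opposite order between the trios. Without it, H2-K1 too was higher in trio 2-4-5. The genes of the list then summed to 5733 to 5952 CPM in trio 2-4-5 and 4888 to 5211 CPM in trio 6-8-9.

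Interferon-stimulated genes were more often higher in trio 2-4-5. Of 19 tested, 9 were called higher there, 5 at least 2-fold (26.3%, beside 11.0% of all genes), and 2 in trio 6-8-9. The median log2 difference of the list, trio 6-8-9 over trio 2-4-5, was -0.68. Irgm1, an interferon-induced GTPase that guards against intracellular microbes, had 21.3, 21.9 and 10.9 CPM in trio 2-4-5 and 4.53, 3.72 and 4.50 CPM in trio 6-8-9. Iigp1, of the same family, had 9.42, 10.8 and 6.34 CPM in trio 2-4-5 and 1.22, 1.06 and 1.71 CPM in trio 6-8-9. Hashtag 5 was the lowest of trio 2-4-5 for both, and the trios did not overlap. Their log2 differences were 2.03 ± 0.27 and 2.64 ± 0.31 (adjusted p = 5.2e-05 and 2.0e-05). Cxcl10, a chemokine also induced by interferon, went the other way with 8.59, 5.84 and 13.1 CPM in trio 2-4-5 and 21.0, 30.0 and 39.6 CPM in trio 6-8-9 and a log2 difference of 1.68 ± 0.28 (adjusted p = 3.2e-04), and it was not called in cells of 4000 to 12000 UMIs (adjusted p = 0.4).

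The promoter of Irgm1 (chr11:48871421-48871670, minus strand, RefSeq, GRCm38.p6) is shown because it holds the core of the interferon-stimulated response element near the start site, spelled GAAA, 2 bases of any kind, then GAAA. Capitals mark 2 overlapping matches on the gene's strand.
Irgm1: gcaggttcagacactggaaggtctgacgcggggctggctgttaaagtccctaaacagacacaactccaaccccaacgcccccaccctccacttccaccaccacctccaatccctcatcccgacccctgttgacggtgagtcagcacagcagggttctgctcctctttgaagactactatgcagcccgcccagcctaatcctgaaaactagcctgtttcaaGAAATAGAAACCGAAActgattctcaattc
On either strand this core was present for 12 of 20 interferon-stimulated genes with a promoter in the table, beside 3.46% of all genes and 2.98% of all promoters, and for 1 of 23 early response and stress genes. The list was chosen for its regulation by interferon, so the motif describes the list and not the difference between the trios.

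Outside the lists, the highest fold changes named by rule in trio 6-8-9 beside Cyp26b1 were Scin, Hic1, Dcstamp, Ctla2b and Esyt3. Scin, an actin-severing protein, had 0.831, 2.34 and 1.36 CPM in trio 2-4-5 and 72.5, 97.1 and 128 CPM in trio 6-8-9. Hic1, a transcriptional repressor, had 2.22, 2.63 and 3.17 CPM in trio 2-4-5 and 72.4, 67.1 and 83.9 CPM in trio 6-8-9. Esyt3, a protein of membrane contact sites, had 0.831, 2.04 and 3.17 CPM in trio 2-4-5 and 36.9, 37.9 and 43.9 CPM in trio 6-8-9. All 3 were at 3.17 CPM or below in trio 2-4-5, where 3 UMIs amount to 0.68 to 0.88 CPM. Their log2 differences were 6.04 ± 0.32, 4.78 ± 0.17 and 4.23 ± 0.24 (adjusted p = 2.4e-08, 1.2e-09 and 4.5e-08). Abundant genes were among them. Rgs1, which dampens chemokine receptor signals, had 146, 141 and 156 CPM in trio 2-4-5 and 1834, 1860 and 2017 CPM in trio 6-8-9, and Pde3b, which breaks down cAMP, had 35.7, 43.5 and 39.6 CPM in trio 2-4-5 and 562, 615 and 585 CPM in trio 6-8-9. In both, trio 6-8-9 lay above, with differences of 3.68 ± 0.07 and 3.89 ± 0.09 (log2, adjusted p = 3.4e-11 and 9.7e-11).

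At the other end stood Cnr2, Dglucy, Ppef2 and Cd226. Cnr2, the cannabinoid receptor of immune cells (chr4:135895394-135920207, plus strand, GRCm38), had 52.6, 56.1 and 48.5 CPM in trio 2-4-5 and 4.53, 2.12 and 5.36 CPM in trio 6-8-9. Dglucy, a mitochondrial enzyme of D-glutamate metabolism, had 49.9, 49.3 and 44.6 CPM in trio 2-4-5 and 4.75, 5.84 and 4.93 CPM in trio 6-8-9. Ppef2, a phosphatase, had 41.5, 59.0 and 34.9 CPM in trio 2-4-5 and 6.85, 14.3 and 6.54 CPM in trio 6-8-9. No values overlapped, and hashtag 8 was the highest of its trio for Ppef2 and the lowest for Cnr2. The log2 differences were 3.57 ± 0.18, 3.24 ± 0.13 and 2.43 ± 0.26 in favour of trio 2-4-5 (adjusted p = 2.1e-08, 3.6e-09 and 9.2e-06). Kcnip3, P2ry6, Spns3 and AB124611 completed the rule's list at this end, with log2 differences from 2.14 to 2.27.

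Of 19 tested lysosomal genes, 13 were called higher in trio 6-8-9 and 2 in trio 2-4-5, with 6 (31.6%, beside 9.19%) and 1 past 2-fold. With total-count scaling these became 10 and 4, with 2 and 3 past 2-fold. Lgmn, the protease legumain, had 24.9, 19.6 and 26.3 CPM in trio 2-4-5 and 118, 133 and 134 CPM in trio 6-8-9, and Ctse, cathepsin E, was higher in trio 2-4-5 with 31.0, 40.0 and 38.3 CPM in trio 2-4-5 and 11.05, 12.5 and 12.6 CPM in trio 6-8-9. Of 17 NF-kB genes, 9 were called higher in trio 6-8-9, 5 of them 2-fold (29.4%, beside 9.19%), and 3 in trio 2-4-5. With total-count scaling it was 7 and 7, beside 1459 and 6110 of all 10795 genes. The subunit gene Rel had 208, 209 and 285 CPM in trio 2-4-5 and 1048, 1026 and 1105 CPM in trio 6-8-9. Of 11 tested uptake and scavenging genes, 5 were called higher in trio 6-8-9, 4 of them 2-fold (36.4%, beside 9.19%), and 3 in trio 2-4-5, none of them 2-fold. The list's median log2 difference was 0.01, and with total-count scaling 4 were called higher in trio 6-8-9 and 6 in trio 2-4-5. Havcr2, which encodes the phosphatidylserine receptor Tim-3, had 289, 289 and 304.9 CPM in trio 2-4-5 and 909, 953 and 1029 CPM in trio 6-8-9, and Timd4, which encodes another such receptor, Tim-4, had 8.59, 6.13 and 9.74 CPM in trio 2-4-5 and 63.7, 46.4 and 75.6 CPM in trio 6-8-9. The values of these 5 genes did not overlap, with log2 differences, trio 6-8-9 over trio 2-4-5, of 2.43, -1.60, 2.17, 1.71 and 2.92 (SE 0.11, 0.13, 0.11, 0.07 and 0.21). Of 17 tested pattern recognition receptors, 5 were at least 2-fold higher in trio 2-4-5 (29.4%, beside 11.0%) and 4 in trio 6-8-9 (23.5%, beside 9.19%). In cells of 4000 to 12000 UMIs it was 1 and 2 of 10 tested. Nod1, a sensor of bacterial peptidoglycan, had 16.1, 15.5 and 17.0 CPM in trio 2-4-5 and 1.99, 3.18 and 2.36 CPM in trio 6-8-9. Cd14, the co-receptor for lipopolysaccharide, had 1.11, 1.46 and 1.36 CPM in trio 2-4-5 and 19.2, 39.0 and 31.2 CPM in trio 6-8-9, and these went opposite ways with log2 differences of -2.76 ± 0.22 and 4.44 ± 0.37 (adjusted p = 7.7e-07 and 1.1e-06).

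Cell cycle transcripts were higher in trio 2-4-5. Of 29 tested genes, 17 were called higher there, 9 at least 2-fold (31.0%, beside 11.0%), and none in trio 6-8-9. Mki67, the proliferation marker, had 119, 76.5 and 85.8 CPM in trio 2-4-5 and 61.9, 30.8 and 55.8 CPM in trio 6-8-9. Cenpf, a kinetochore protein, had 37.1, 16.1 and 32.6 CPM in trio 2-4-5 and 14.9, 8.49 and 9.00 CPM in trio 6-8-9. Hashtag 2 was the highest and hashtag 8 the lowest for both, and the hashtags within a trio spread widely. The log2 differences were 0.88 ± 0.21 and 1.37 ± 0.28 (adjusted p = 0.0035 and 0.0012). Without hashtag 2, 10 genes of the list were called, and in cells of 4000 to 12000 UMIs 9 of 18 tested. Without cells that hold an Mki67 or Top2a UMI, 4 of 13 tested were called higher in trio 2-4-5 and 1 in trio 6-8-9, none past 2-fold. That cut removed cells by proliferation transcripts, so the fall in calls was in part fixed in advance. It used unthinned UMIs, and cells of trio 6-8-9 were deeper. A further setting left out the deepest 5% and cells with 3 or more UMIs of T, natural killer, B or macrophage markers. There 11 of 28 tested were called higher in trio 2-4-5, 2 of them 2-fold, and 1 in trio 6-8-9. With total-count scaling 28 of 29 were called higher in trio 2-4-5, beside 6110 of all 10795 genes. The share of cells with a UMI of Mki67 or Top2a overlapped between the trios, at 38.5%, 29.3% and 34.7% and at 36.7%, 32.5% and 36.1%, whereas in cells thinned to 2000 UMIs Mki67 was found in 13.4%, 7.85% and 7.99% of cells in trio 2-4-5 and 6.06%, 3.17% and 5.73% in trio 6-8-9.

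Transcripts listed as markers of other cell types differed between the trios too. Sums of these markers are CPM without TMM scaling, and in free RNA the sums were 469 CPM for macrophage and monocyte, 107 CPM for epithelial and 929 CPM for cDC2 markers. The 11 macrophage and monocyte markers summed to 109 to 142 CPM in trio 2-4-5 and 287 to 365 CPM in trio 6-8-9, and all 7 tested were called higher in trio 6-8-9 (beside 30.4% of all genes). None of the 11 was at 0 in every library, while Lyz2 carried most of the sum. The highest single cell held 50%, 39.9% and 16.4% of the UMIs of C1qa, C1qb and C1qc together in hashtags 6, 8 and 9. After cells with 3 or more UMIs of T and natural killer, B and macrophage markers and the deepest 5% were left out, C1qa was not called (adjusted p = 0.45), Csf1r turned to the other sign and was not called (adjusted p = 0.51), and 2 of 3 tested markers of the list were called. C1qa and other markers of the list helped to choose the cells left out, so this loss was in part fixed in advance. Epithelial and cDC2 markers did not choose cells, and 3 of 3 and 4 of 7 tested were still called higher in trio 6-8-9. The 13 epithelial markers summed to 7.65 to 11.8 CPM in trio 2-4-5 and 42.0 to 66.3 CPM in trio 6-8-9, with 2 markers at 0, and all 3 tested (Epcam, Fabp1 and Fabp2) were called higher in trio 6-8-9 (beside 30.4% of all genes). A single cell held 40.7% to 43.3% of the Fabp1 and Fabp2 UMIs in each hashtag of that trio. Of the 10 cDC2 markers, 6 of 7 tested were called higher in trio 6-8-9 (85.7%, beside 30.4% of all genes), and the list summed to 48.0 to 79.4 CPM in trio 2-4-5 and 103 to 173 CPM in trio 6-8-9. Hemoglobin stood out in hashtag 8 alone, at 1927 CPM beside 24.6 to 37.8 CPM elsewhere, and 98.6% of those UMIs came from 1 cell. The 4 tested hemoglobin and erythrocyte genes were called higher in trio 6-8-9 (beside 30.4% of all genes), and none was called without hashtag 2, 4, 5 or 8. The 11 T and natural killer cell markers summed to 1.97 to 10.5 CPM in trio 2-4-5 and 3.06 to 3.36 CPM in trio 6-8-9, with 4 at 0. The 9 stromal and endothelial markers in the files summed to 57.2 to 70.2 CPM and 18.1 to 24.3 CPM, and Pecam1 alone was tested and was higher in trio 2-4-5. Pecam1 and Epcam were not limited to the cells they are listed for. With TMM scaling, cDC2 held 106 to 134 CPM of Pecam1. Epcam had 6.25 to 8.73 CPM in cDC2 of trio 2-4-5 and 163 to 190 CPM in cDC2 of trio 6-8-9. The 9 B cell markers summed to 89.5 to 128 CPM and 87.9 to 103 CPM. The part of these cells in the results above was not tested beyond the settings given.

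Transcripts of iCre, hCD2 and Gm38411 were absent or near absent in cDC1. The 6 libraries held no iCre UMI, 0, 0 and 7 hCD2 UMIs in trio 2-4-5 and 1 in each hashtag of trio 6-8-9, and 4 UMIs of Gm38411 in all. The fluorescent protein tdTomato had 13.3, 16.4 and 28.3 CPM in trio 2-4-5 and 44.0, 62.6 and 68.1 CPM in trio 6-8-9 and was called higher in trio 6-8-9 (1.55 ± 0.24, adjusted p = 1.4e-04). Free RNA held 129 CPM of it, above all 6 libraries, while cDC2 had 24.4, 27.9 and 37.4 CPM in trio 2-4-5 and 151, 221 and 242 CPM in trio 6-8-9. The shares of thinned cDC1 with a UMI overlapped (4.45%, 3.31% and 7.99% of cells in trio 2-4-5 and 7.13%, 6.75% and 9.32% in trio 6-8-9), and the unthinned shares were 17.0%, 19.4% and 30.2% of cells in trio 2-4-5 and 35.1%, 39.7% and 41.3% in trio 6-8-9. The part of free RNA in these values was not tested.

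The same trios were then compared within cDC2, the other conventional type, for the difference between the classes. cDC2 were gated with at least 3 Sirpa UMIs, more than of Xcr1 and Clec9a, at most 1 of Fscn1 and at most 2 C1q UMIs (3779 cells), and the interaction of class and trio was fitted with the hashtag as a block. Of 11997 genes tested in cDC2, 8880 differed between the trios (74.0%). The interaction was called for 3839 of 11972 genes (32.1%), and for 1586 at least 2-fold (13.2%). Of 3574 genes called in the interaction and tested in all 3 fits, 2787 had a smaller absolute difference in cDC1 than in cDC2, 787 a larger one, and 1024 had opposite signs, 283 of them called in both classes. The cDC2 gate held many more Ccr7 transcripts in trio 6-8-9 (392 to 519 CPM) than in trio 2-4-5 (20.1 to 22.4 CPM), and a Ccr7 UMI was found in 58.6% to 65.8% of its cells against 17.4% to 20.1%. The part of this mix in the interaction was not tested.

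Cyp26b1 differed more between the trios in cDC1 than in cDC2. In cDC2 it had 0.262, 0.521 and 0.546 CPM in trio 2-4-5 and 0.425, 0.969 and 0.274 CPM in trio 6-8-9, and the trio difference was 6.98 ± 1.31 larger (log2) in cDC1 (interaction adjusted p = 9.3e-04). Esyt3, Stk39, Hes1 and Airn followed at this end. Stk39, a stress-regulated kinase, had 1.94, 4.96 and 7.93 CPM in trio 2-4-5 and 33.0, 44.3 and 44.5 CPM in trio 6-8-9 in cDC1 and 2.88, 7.56 and 10.6 CPM in trio 2-4-5 and 1.06, 1.11 and 1.23 CPM in trio 6-8-9 in cDC2. Hes1, a target gene of Notch, had 14.1, 12.3 and 29.9 CPM in trio 2-4-5 and 56.7, 70.9 and 77.5 CPM in trio 6-8-9 in cDC1 and 35.3, 33.9 and 36.6 CPM in trio 2-4-5 and 3.08, 4.57 and 2.68 CPM in trio 6-8-9 in cDC2, so both genes went opposite ways in the 2 classes (interaction 5.63 ± 0.29 and 5.30 ± 0.28, adjusted p = 5.7e-09 and 8.7e-09). Airn is antisense to Igf2r, the sources used here do not give whether strand was used in counting, and reads of the pair cannot be told apart. Aldh1a2 too differed more in cDC1 (interaction 2.39 ± 0.27, adjusted p = 1.2e-05), at 8.38, 9.90 and 15.6 CPM in trio 2-4-5 and 11.4, 13.2 and 13.7 CPM in trio 6-8-9 in cDC2.

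At the other end, differences were larger in cDC2. Itgae had 5.50, 6.78 and 7.37 CPM in trio 2-4-5 and 139.6, 168 and 150.2 CPM in trio 6-8-9 in cDC2, a change of 4.54 on the log2 scale beside 1.11 in cDC1 (interaction 3.43 ± 0.15, trio 2-4-5 over trio 6-8-9, adjusted p = 1.5e-09). Zfp366, which encodes the dendritic cell factor DC-SCRIPT, had 485, 498 and 429 CPM in trio 2-4-5 and 213, 235 and 278 CPM in trio 6-8-9 in cDC1 and 242, 238 and 229 CPM in trio 2-4-5 and 1414, 1397 and 1313 CPM in trio 6-8-9 in cDC2, opposite ways (interaction 3.504 ± 0.11, adjusted p = 1.1e-10). Cd86 and Ccr7 differed by 4.00 and 4.45 in cDC2. For Rgs1, Ahr and Nr4a2 the interaction was 0.02 ± 0.10, -0.24 ± 0.10 and 0.11 ± 0.13 (adjusted p = 0.89, 0.1 and 0.57), and a difference between the classes was not detected for these genes. Clnk and Nlrc5 differed more in cDC1 (interaction -1.14 ± 0.41 and -1.14 ± 0.16, trio 6-8-9 over trio 2-4-5, adjusted p = 0.045 and 6.0e-05).

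**Figure D5:**
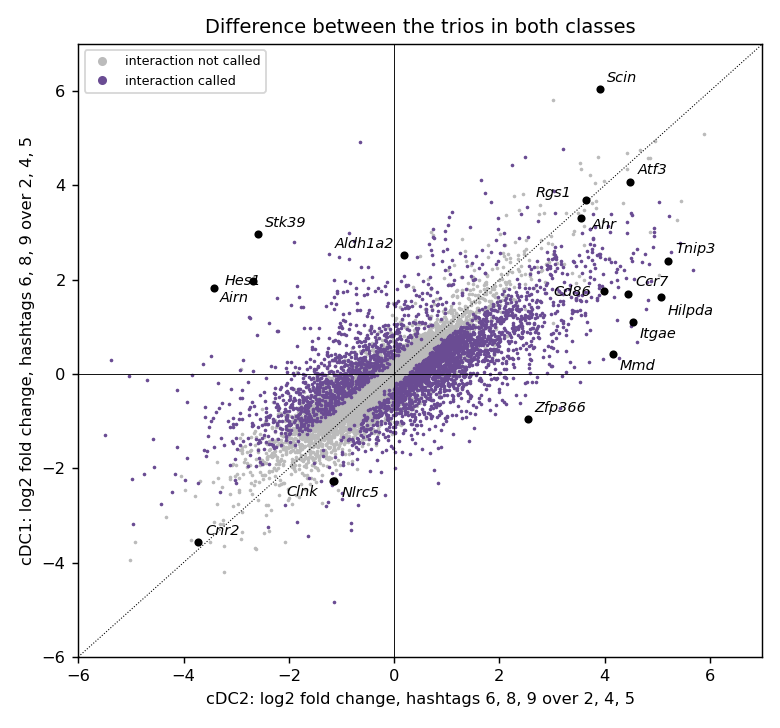
Log2 fold change, trio 6-8-9 over trio 2-4-5, of each gene in cDC2 (horizontal) and cDC1 (vertical), purple where the interaction of class and trio was called, with the line of equality dotted. Itgae, Ccr7 and Hilpda lie below the line on the right, Stk39, Hes1 and Airn lie in the upper left, and Rgs1, Ahr and Atf3 lie near the line. Genes not tested in cDC2, such as Cyp26b1 and Esyt3, are not drawn.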

How the data were processed

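RNA counts were analysed for 6 hashtagged replicates of 1 droplet run. The authors deposited raw UMI counts per gene and barcode, made with Cell Ranger 8.0.1 on mm10 per the submitters' processing notes, and a table with a hashtag call and its probability, a fraction from 0 to 1, for 27679 barcodes. Use of introns or strand in counting: not given in the sources used here. Multiplets (4815, of which 776 passed the cDC1 gate), blank (1706) and unassigned (1919) barcodes were left out. No barcode was listed under more than 1 hashtag, and 45 cDC1 had an assignment probability below 0.95. No other doublet caller was run. Of 19239 single-hashtag cells, 1294 had fewer than 500 genes and 3627 more than 10% mitochondrial UMIs. Counts of cDC1 were summed per hashtag and fitted with edgeR 4.0.16 (quasi-likelihood test, TMM, filterByExpr, R 4.3.3) as 3 libraries against 3, with 4 residual degrees of freedom, and p-values were adjusted by Benjamini-Hochberg over all genes tested. The interaction used 12 libraries with the hashtag as a block. DESeq2 1.42.0, other scalings, gates, depth bands and filters were alternatives, and the fits were tested on simulated data. Levels are TMM-normalised CPM. Precision is limited by 3 hashtags per trio, and counting intervals (exact, 95%) and limits from 3 counts cover counting error only. Free RNA was the sum of barcodes with at most 100 UMIs.

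The members, trios and gene lists were chosen with earlier results of these data known. Genes were named by rule: the gate genes, 16 chosen genes, up to 4 called members per list with no overlap between trios and the largest changes, the 10 highest and 10 lowest changes among called genes of at least 20 CPM without overlap, and the 5 at either end of the interaction with at least 20 CPM in cDC1, both without ribosomal protein, mitochondrial, antigen receptor, Gm and Rik genes. Other genes in the text were named after their values were seen. Positions come from GENCODE on GRCm38 and promoters from RefSeq.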

Additional observations from a re-analysis of the deposited data

Results flagged for a closer look

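Among the genes named whatever their result and those at either end of the interaction, the difference between the trios in cDC1 was not the same as in cDC2 for 16 by edgeR's interaction test with Benjamini-Hochberg adjustment. Other named genes passed that test too, as did 32.1% of all genes. All are log2, trio 2-4-5 over trio 6-8-9, cDC1 minus cDC2, so a negative value means that cDC1 leaned more towards trio 6-8-9 than cDC2 did. The most negative were Cyp26b1 at -6.98 ± 1.31 (SE, adjusted p = 9.3e-04), Stk39 at -5.63, Hes1 at -5.30, Airn at -4.69, Esyt3 at -4.06 and Aldh1a2 at -2.39, and Ccr9 stood at -0.96 ± 0.18 (adjusted p = 9.8e-04). Ccr9 did not pass the test within cDC1, and in cDC2 it had 27.0, 34.7 and 33.0 CPM in trio 2-4-5 and 17.0, 12.5 and 16.7 CPM in trio 6-8-9.

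Positive values were found for Mmd at 3.72, Zfp366 at 3.504, Itgae at 3.43, Hilpda at 3.42, Tnip3 at 2.82, Ccr7 at 2.74, Cd86 at 2.24 and Cd40 at 1.74. Hilpda, a regulator of lipid droplets, had 17.7, 15.5 and 21.7 CPM in trio 2-4-5 and 50.3, 59.2 and 63.5 CPM in trio 6-8-9 in cDC1 and 25.1, 22.2 and 20.5 CPM in trio 2-4-5 and 780.4, 826 and 669 CPM in trio 6-8-9 in cDC2. Tnip3, an inhibitor of NF-kB, had 22.2, 23.9 and 24.7 CPM in trio 2-4-5 and 103, 118 and 155 CPM in trio 6-8-9 in cDC1 and 45.6, 48.0 and 49.1 CPM in trio 2-4-5 and 1724, 1955 and 1624 CPM in trio 6-8-9 in cDC2. Batf3 had the smallest value, 0.30 ± 0.10 (adjusted p = 0.035). The mix of cells inside the cDC2 gate differed between the trios, and its part in these values was not tested.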

How the results depend on the processing

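The count of 6468 genes called between the trios fell to 3376 in cells of 4000 to 12000 UMIs, where fewer genes and cells entered, and 3170 of those were shared with the full count. DESeq2 called 5504. Leaving out each hashtag in turn gave 5726 to 6312 calls. For the interaction, DESeq2 called 2410 genes, the band of 4000 to 12000 UMIs 1543, and leaving out each hashtag gave 3122 to 3437. The difference in the cDC1 share, in percentage points, was 2.76 with a marker minimum of 2, 1.24 with 5, 2.54 with the gate on thinned cells, and 0.832 to 4.96 when a hashtag was left out. Without cycling cells, and with scaling by total counts only, both chosen after seeing the data, 5474 and 7569 genes were called, and the latter moved the split to 80.7% higher in trio 2-4-5.

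Of 132 named genes with a test, 115 kept direction and side of the threshold in every setting run. In 2447 gene values under the alternatives, 34 lost the call, 3 gained it and 16 changed sign. As log2, trio 2-4-5 over trio 6-8-9, the changed signs were as follows. With cells of 4000 to 12000 UMIs Irf8 was 0.048, Cd8a 0.088 and Mmd 0.21. With total-count scaling Irf8 was 0.46, Cd8a 0.40 and Mmd 0.052. Irf8 was 0.00263 with a marker minimum of 2, 0.00603 with at most 5% mitochondrial UMIs, and -0.0323 to 0.0107 when a hashtag was left out, positive without hashtag 4 or 5. Cd8a was -0.127 to 0.00542 when a hashtag was left out, positive without hashtag 2. Ccr9 was -0.00463 with the gate on thinned cells, -0.0144 with no filter on low counts, and -0.0553 to 0.131 when a hashtag was left out, negative without hashtag 9. Without the deepest cells and those with T, natural killer, B or macrophage markers Csf1r was 0.26, and without cycling cells Mmd was 0.22. The cause of these changes was not tested. No paired analysis was run, since the sources used here do not link hashtags to animals.

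Depth limits genes near 1 CPM in trio 2-4-5, where 3 UMIs amount to 0.68 to 0.88 CPM. The trios differ in depth, mitochondrial share and ribosomal share throughout, and no batch term separates these from the trios. Each trio holds 3 replicates of 1 run.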

Other observations

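Sterol synthesis genes, not described above, were called higher in trio 6-8-9 for 16 of 27 tested (59.3%, beside 30.4% of all genes) and in trio 2-4-5 for 2. The largest in the list with no overlap included Cyp51, an enzyme of the pathway, with 43.8, 23.6 and 37.1 CPM in trio 2-4-5 and 87.4, 67.1 and 86.5 CPM in trio 6-8-9, and Insig1, a sterol sensor, with 20.8, 12.6 and 27.4 CPM in trio 2-4-5 and 49.5, 57.3 and 53.1 CPM in trio 6-8-9. Abcg1, which exports cholesterol, had 17.4, 30.4 and 18.1 CPM in trio 2-4-5 and 8.51, 8.49 and 10.7 CPM in trio 6-8-9, higher in trio 2-4-5. Hashtag 4 was the lowest of its trio for Cyp51 and Insig1 and the highest for Abcg1. The log2 differences, trio 6-8-9 over trio 2-4-5, were 1.21 ± 0.18, 1.36 ± 0.19 and -1.22 ± 0.22 (adjusted p = 9.9e-05, 7.3e-05 and 5.2e-04, edgeR's quasi-likelihood test with Benjamini-Hochberg adjustment). With total-count scaling the list's calls were 8 and 6.

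Of 18 tested glycolysis and hypoxia genes, 9 were called higher in trio 6-8-9, 2 of them at least 2-fold (11.1%, beside 9.19%), and 3 in trio 2-4-5. With total-count scaling it was 3 and 8, beside 1459 and 6110 of all 10795 genes. Hif1a, the oxygen-sensitive transcription factor, had 50.1, 50.8 and 57.3 CPM in trio 2-4-5 and 106, 118 and 112 CPM in trio 6-8-9. Pfkp and Pfkl, which encode the platelet and liver forms of phosphofructokinase, were in opposite order: Pfkp had 67.3, 70.7 and 60.02 CPM in trio 2-4-5 and 245.3, 188 and 195 CPM in trio 6-8-9, and Pfkl had 17.4, 19.9 and 21.7 CPM in trio 2-4-5 and 10.8, 9.29 and 10.2 CPM in trio 6-8-9. Neither overlapped, with log2 differences of 1.67 ± 0.11 and -0.95 ± 0.15 (adjusted p = 1.8e-07 and 2.2e-04).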
